A study of Mus musculus with 12 samples.

Results

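The genes of the lysosomal proton pump, its resident cathepsins and its LAMP membrane proteins were followed in mammary tumors of mice fed 1 of 3 diets. Members were the protein-coding genes whose symbol starts with Atp6v or Atp6ap, or consists of Cts and 1 letter, or of Lamp and 1 digit, leaving out Atp6v0d2 and Ctsk. This rule itself uses no measured value, but members were chosen with earlier results of these data known. It took 46 of the 54532 genes listed, and 34 of them had enough reads to be tested among 15504 genes in all. By role, 8 members encode the membrane-embedded V0 sector of the pump, 13 the V1 sector that hydrolyses ATP, 3 its accessory proteins, 13 cysteine cathepsins, 4 aspartic or serine cathepsins and 4 LAMP proteins, and 1 gene (Atp6v1fnb) carries the name only because it neighbours Atp6v1f.

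The V-ATPase pumps protons into lysosomes, and the acid it makes there activates the cathepsins, proteases that degrade proteins taken up by endocytosis or autophagy. LAMP1 and LAMP2 are heavily glycosylated proteins that line the lysosomal membrane. Lysosome genes are expressed in every cell type and are especially abundant in macrophages, while in tumors cathepsins are known for their part in matrix breakdown. The transcription factor TFEB and its relatives raise many of these genes together through a promoter element, the CLEAR element, whose core is CACGTG.

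RNA-seq counts were made from 12 mammary tumors, 4 for each diet. All mice were female MMTV-Neu, a model in which the Neu (HER2) oncogene is driven in mammary tissue by the mouse mammary tumor virus promoter. The groups received control diet, which is chow with the vehicle, or the same chow with MSU-42011 or with bexarotene, both agonists of the retinoid X receptor (RXR), at 100 mg per kg of diet. Treatment lasted 10 days and began in mice with established tumors; the age of the mice is not given in the sources used here. The tumors are pieces of tissue with all their cell types, so that fewer cells of a type and less RNA per cell cannot be told apart.

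Between 16583413 and 25925027 reads were counted on genes in each tumor. All 12 epithelial markers examined were detected, though not each in every tumor. Their summed levels were 3461 to 6953 normalized CPM, which are counts scaled to a common library size. Krt19 had 0 in control replicate 4 and MSU-42011 replicate 3 and was highest, at 28.2, in bexarotene replicate 1. Bexarotene replicate 1 stood apart from the other tumors, with a median correlation of 0.915 with them against 0.961 or more for the others. It held 11484 normalized CPM of 10 fibroblast markers, while the other 11 tumors held 112 to 941, and 7282 of 16 macrophage markers, while the others held 1144 to 3675. It also had the lowest sum of the epithelial markers. The part of this cell mixture in the results below was not tested. For some bexarotene results, though not for every one that turned or shrank, values are also given without this tumor.

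Promoter sequences of 36 members were found in RefSeq (build GRCm38.p6), including 25 of the 34 tested members; Atp6v0a2, Atp6v1b2, Atp6v1c1, Atp6v1g1, Atp6v1h, Ctsb, Ctse, Ctsh and Ctsw had no entry. In windows of 250 bases before to 50 bases after the start, CACGTG, which reads the same on both strands, was present for 9 of these 36 members (25%) and for 8.09% of all 27025 genes in the table. The longer form TCACGTGA, which contains CACGTG and is likewise its own reverse complement, was present for 5 members (Atp6v0d1, Atp6v0e, Atp6v1a, Ctsa and Ctsd, or 13.9%) and for 1.12% of all genes. A match is a description of the letters and not evidence of binding. The 250 bases before the start are shown for 4 members with the motif, to show how differently it is placed, and for the pair whose bexarotene and control tumors did not overlap; motif letters are in capitals.

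Ctsd (chr7:142387828-142388077, - strand): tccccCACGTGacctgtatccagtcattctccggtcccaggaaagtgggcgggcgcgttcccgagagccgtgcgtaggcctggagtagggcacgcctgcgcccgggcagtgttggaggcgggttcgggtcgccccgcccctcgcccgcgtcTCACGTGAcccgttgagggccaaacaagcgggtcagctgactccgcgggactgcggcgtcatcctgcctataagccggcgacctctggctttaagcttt
Ctsa (chr2:164833523-164833772, + strand): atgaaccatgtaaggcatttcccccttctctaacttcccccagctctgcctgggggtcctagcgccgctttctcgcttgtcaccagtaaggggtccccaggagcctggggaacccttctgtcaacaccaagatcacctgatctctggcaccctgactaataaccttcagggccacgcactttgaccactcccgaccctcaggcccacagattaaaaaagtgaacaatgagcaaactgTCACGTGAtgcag
Lamp1 (chr8:13158911-13159160, + strand): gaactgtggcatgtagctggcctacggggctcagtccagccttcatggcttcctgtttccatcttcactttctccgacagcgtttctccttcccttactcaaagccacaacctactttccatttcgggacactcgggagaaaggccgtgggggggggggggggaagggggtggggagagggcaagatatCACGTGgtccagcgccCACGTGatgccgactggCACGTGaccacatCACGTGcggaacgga
Atp6v1a (chr16:44139260-44139509, - strand): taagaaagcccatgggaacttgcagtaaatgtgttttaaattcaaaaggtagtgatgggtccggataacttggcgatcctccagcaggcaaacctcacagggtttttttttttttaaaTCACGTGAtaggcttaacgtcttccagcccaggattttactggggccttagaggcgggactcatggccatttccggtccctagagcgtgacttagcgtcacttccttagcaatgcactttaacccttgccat
Atp6v1c2 (chr12:17324731-17324980, - strand): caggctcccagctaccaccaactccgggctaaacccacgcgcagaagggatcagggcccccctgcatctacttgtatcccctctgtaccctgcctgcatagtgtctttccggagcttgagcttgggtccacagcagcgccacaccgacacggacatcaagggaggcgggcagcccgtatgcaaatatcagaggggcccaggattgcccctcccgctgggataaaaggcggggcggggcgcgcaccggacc
Atp6v1b1 (chr6:83742767-83743016, + strand): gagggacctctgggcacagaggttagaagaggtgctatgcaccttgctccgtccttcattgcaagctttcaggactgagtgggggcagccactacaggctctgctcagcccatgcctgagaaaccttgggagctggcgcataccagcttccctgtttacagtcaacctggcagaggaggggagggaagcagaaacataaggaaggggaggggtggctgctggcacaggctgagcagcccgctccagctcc

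The Ctsd window held 2 motifs, starting 245 and 98 bases before the RefSeq start, the latter in the longer form. Lamp1 had 4 copies of CACGTG, the most of any member, within 61 bases of the start. Ctsa had 1 copy of the longer form 12 bases before the start and another just after it, counting from the C of CACGTG, and Atp6v1a had 1 at 131 bases. No CACGTG was found in the windows of Atp6v1c2 or Atp6v1b1, and the RefSeq start of Atp6v1c2 lies inside the span given for that gene in the deposited table. The same holds for the RefSeq starts of the Ctsa, Ctsd, Atp6v1a and Atp6v1b1 windows shown, while that of Lamp1 equals the deposited start. The Ctsd motif at 98 bases and the motifs of Ctsa and Atp6v1a thus lie within the deposited spans of these genes. A second RefSeq window of Ctsa (chr2:164832622-164832921), around the deposited start of the gene, held no CACGTG. The 9 tested members with the motif had a median log2 fold change of -0.09 for MSU-42011 against control, and the 16 without it of -0.09. For bexarotene against control the medians were -0.13 and 0.02, and -0.18 and -0.05 without bexarotene replicate 1.

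**Figure D1:**
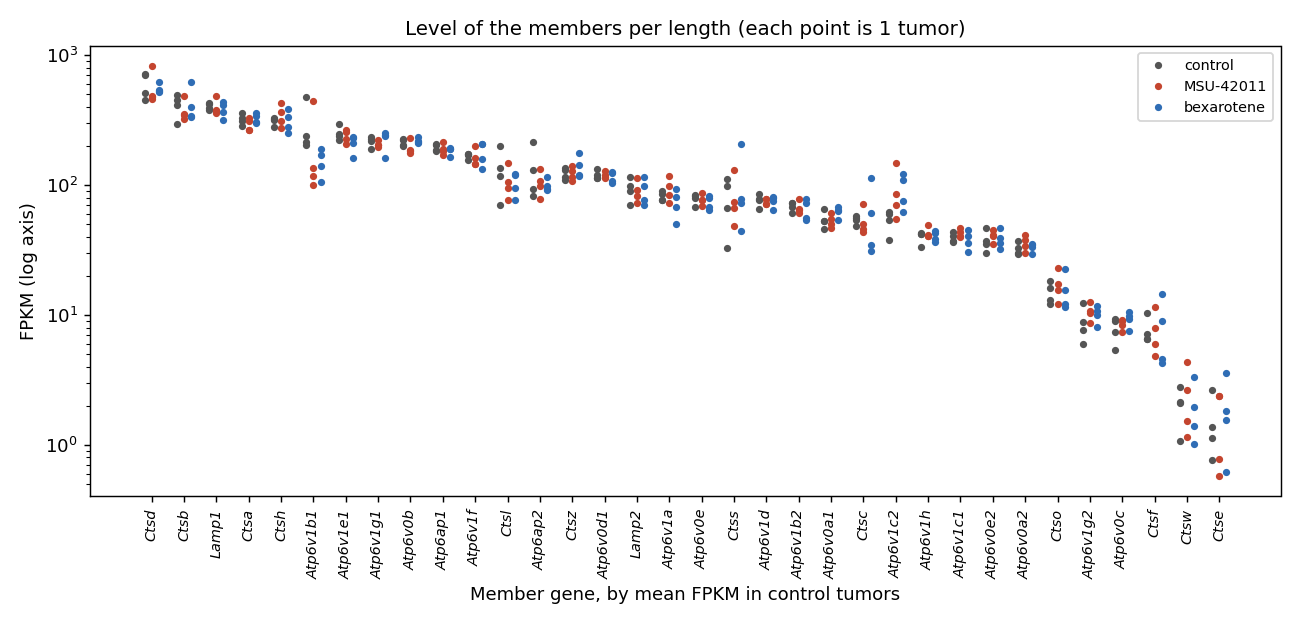
Level of each of the 34 tested members as FPKM on a log axis, ordered by the mean in control tumors, with 1 point per tumor and 1 color per diet. The levels run from Ctsd, with a control mean of 594 FPKM, to Ctse, with 1.47, and the points of the 3 diets lie over each other for most genes.

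Per length, 4 of the 12 tested cathepsins and Lamp1 were the most abundant members in control tumors, while Ctsf, Ctsw and Ctse were the least abundant. Ctsd, an aspartic protease, had a mean of 594 ± 132 FPKM (SD, n = 4), Ctsb 415 ± 84.2, Lamp1 405 ± 24.7, Ctsa 320 ± 30.9 and Ctsh 312 ± 20.8. The most abundant pump subunits were Atp6v1b1 at 282 ± 128 and Atp6v1e1 at 250 ± 30.6 FPKM. The levels at the other end were Ctsf at 7.67, Ctsw at 2.02 and Ctse at 1.47 FPKM. Of the 33 pairs of neighbours in this order, 29 had overlapping ranges over the 4 control tumors, and a clear step was seen only for Lamp1 over Ctsa, Atp6ap1 over Atp6v1f, Atp6v0a2 over Ctso and Ctsf over Ctsw.

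Of the 12 members not tested, 8 had no count in any tumor: Atp6ap1l, Atp6v1e2, Atp6v1fnb, Ctsg, Ctsm, Ctsq, Lamp3 and Lamp5. At these depths 3 counts, the limit that a count of 0 allows, correspond to between 0.116 and 0.181 CPM. Atp6v1g3 had 0 to 15 counts per tumor and Atp6v0a4 0 to 9, both being subunit forms known from kidney. Ctsj had 5 counts in 1 MSU-42011 tumor and Ctsr 3 in 1 bexarotene tumor; like Ctsm and Ctsq they belong to a cathepsin cluster known from rodent placenta.

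The main question was whether either RXR agonist changed these genes, and no member passed the test in any comparison. With edgeR's quasi-likelihood test and Benjamini-Hochberg adjustment, 0 of 34 members and 0% of the 15504 genes had an adjusted p under 0.05, whether among the 3 diets, between each agonist and control, or between both agonists. DESeq2 and limma on FPKM called 0 of the 34 as well, while DESeq2 called 5, 1, 6 and 25 genes of the whole table in these 4 tests. At an unadjusted p under 0.05, 1 member stood among the 3 diets, which is 2.94% of those tested and compares with 4.24% of all genes, and it was Atp6v1c2. It was higher in both treated groups, where 1.14% of all genes were higher at this p for MSU-42011 and 4.48% for bexarotene. In the downward direction there were 0 members for either agonist, beside 0.851% and 1.96% of all genes. Between the agonists 0 members were at this p, beside 0.819% of all genes upward and 3.13% downward.

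**Figure D2:**
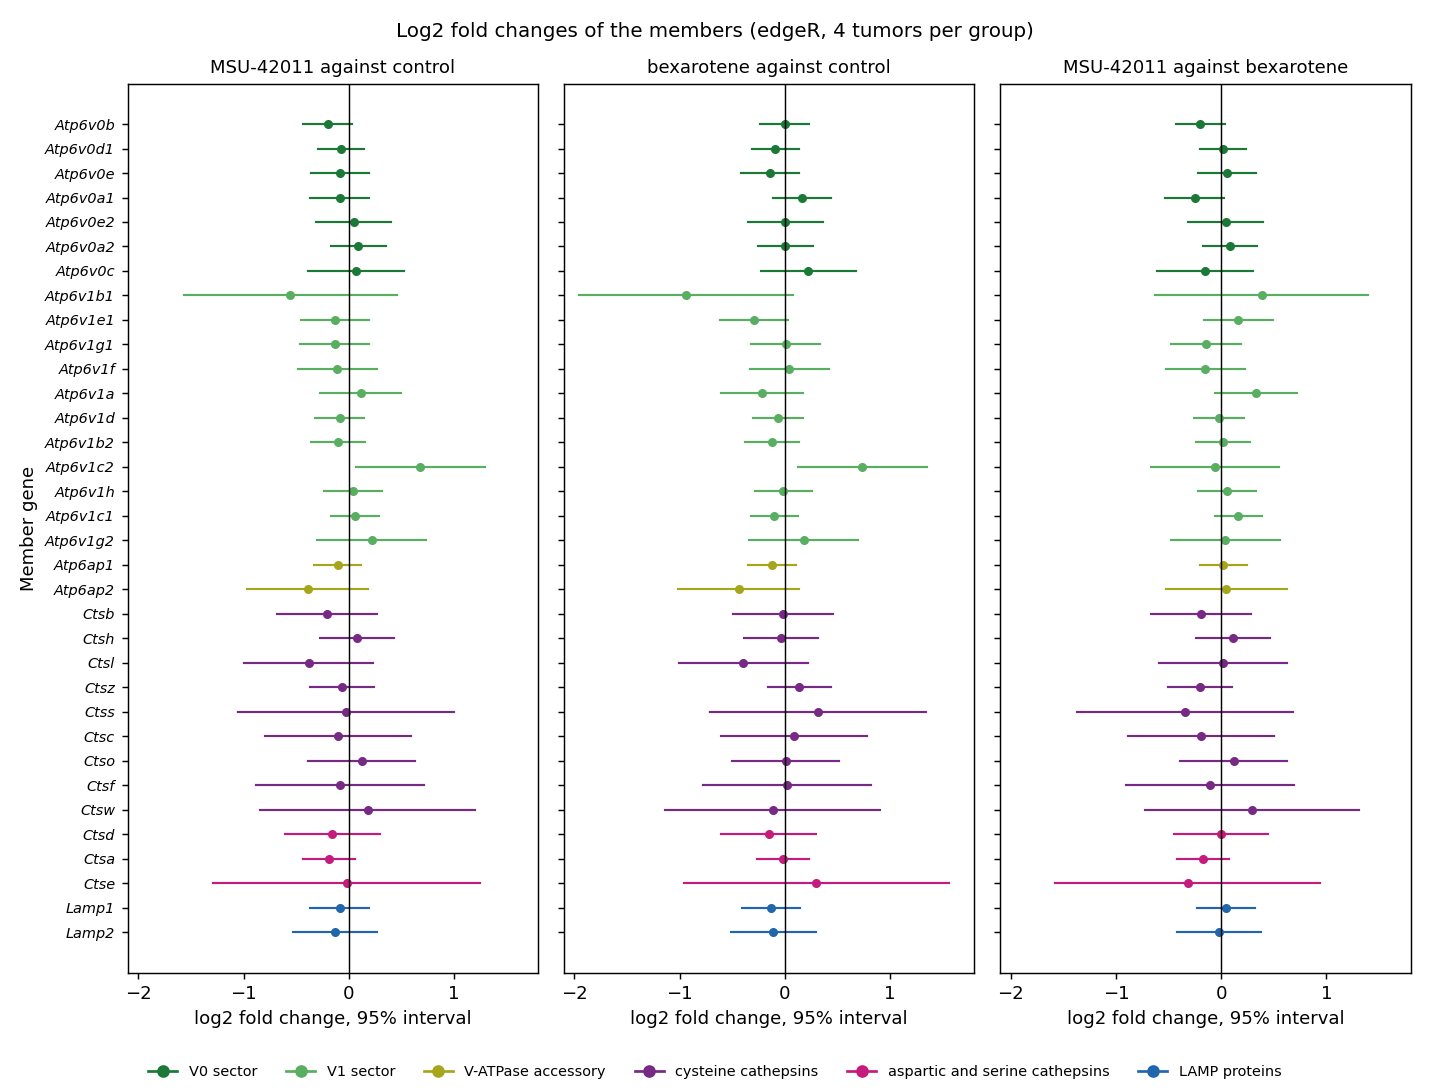
Log2 fold change (point) and 95% interval (line) of each tested member in the 3 comparisons, from the edgeR fit over 12 tumors, colored by role. Nearly all intervals cross 0, and the exceptions are Atp6v1c2 against control for both agonists.

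The changes were small for most members. For MSU-42011 against control, 11 of 34 members had a positive log2 fold change and the median was -0.09, beside 50.3% of all genes with a positive value and a median of 0.00 for all genes. For bexarotene against control, 14 of 34 were positive with a median of -0.02, beside 55.3% and a median of 0.03 for all genes. Leaving out bexarotene replicate 1 moved that median to -0.12 with 13 positive, and turned the sign of 9 members.

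How far these tumors bound the changes follows from the intervals. For MSU-42011 against control, 29 of 34 members had a 95% interval within a 2-fold change in either direction, and the 5 others were Atp6v1b1, Atp6v1c2, Ctse, Ctss and Ctsw. For bexarotene against control the count was 27. Standard errors of the log2 fold change ran from 0.10 to 0.58, with a median of 0.17, and were largest for Ctse, the member with the fewest reads per length.

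**Figure D3:**
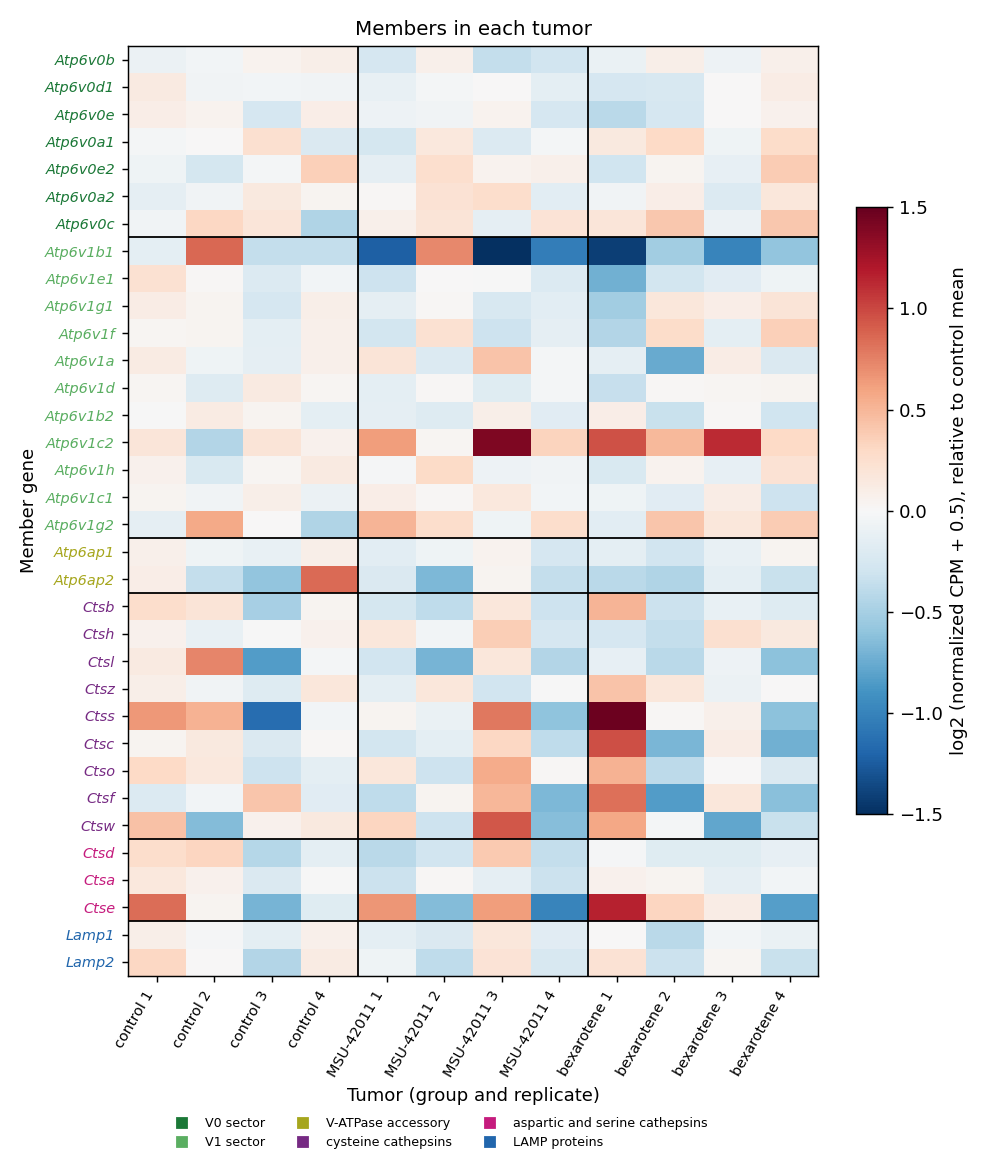
Log2 of normalized CPM plus 0.5 of each tested member in each tumor, minus its average in the 4 controls (red higher, blue lower; gene names colored by role; color limits at 1.5 in either direction). Rows of V0 genes are pale across all tumors, whereas Atp6v1b1, Atp6v1c2 and several cathepsins differ strongly between tumors of 1 diet.

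The V0 sector, the proton channel of the pump, varied least. The median coefficient of variation of its 7 tested genes over the 12 tumors was 11.5%, against 20.99% for all genes tested, and log2 fold changes ran from -0.20 to 0.09 for MSU-42011 and from -0.14 to 0.22 for bexarotene. Variation of this kind also depends on how many reads a gene has, and the median member had 124 normalized CPM against 20.96 for the median gene. The most abundant member of this sector, Atp6v0b, encodes a proteolipid of the channel ring.

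Atp6v0b had 148, 152, 162 and 166 normalized CPM in the control tumors, 132, 166, 122 and 128 with MSU-42011 and 146, 166, 149 and 166 with bexarotene. MSU-42011 replicates 1, 3 and 4 thus lay below every other tumor, and replicate 2 did not. The log2 fold change for MSU-42011 was -0.20 ± 0.11 (SE) against control (adjusted p = 1.00) and -0.20 ± 0.11 against bexarotene (adjusted p = 0.997), with 4 tumors in each group and the edgeR test.

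Atp6v0d1, which links the channel to the central stalk, was the steadiest member of all, with a coefficient of variation of 8.28%. It had 143, 126, 127 and 125 normalized CPM in controls, 121, 127, 130 and 118 with MSU-42011 and 109, 110, 131 and 140 with bexarotene. Atp6v0a1, a subunit of the proton path, had 117, 119, 141 and 103 in controls, 99.3, 133, 103 and 116 with MSU-42011 and 132, 146, 114 and 144 with bexarotene. The groups of both genes overlapped, and Atp6v0a1 differed by -0.25 ± 0.13 in log2 between MSU-42011 and bexarotene (edgeR, adjusted p = 0.997).

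Atp6v0c, the main proteolipid, could not be measured well. Only 129 to 245 reads per tumor were assigned to it, whereas its processed pseudogene Atp6v0c-ps2, which matches it at 464 of 465 bases, received 1252 to 1962. The pseudogene thus held 89.8% of the reads of both, and how the counting split reads between the copies is not given in the sources used here. With the reads of both summed, an alternative chosen after seeing the data, the log2 fold change was -0.11 for MSU-42011 and -0.21 for bexarotene against control (edgeR, adjusted p = 1.00 and 0.795).

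The V1 sector held the members with the widest differences, and these were tissue-restricted forms of its subunits. Atp6v1c2 encodes the C2 form of the C subunit, which ties V1 to V0, and Atp6v1b1 the B1 form of the B subunit, best known from acid-secreting cells of the kidney and inner ear. Their ubiquitous counterparts are Atp6v1c1 and Atp6v1b2. The pairing with their counterparts was chosen after the values were seen.

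Atp6v1c2 (chr12:17284721-17329359, minus strand, GRCm38) had 64.1, 41.6, 64.9 and 59.0 normalized CPM in control tumors. With MSU-42011 it had 87.9, 57.6, 150 and 71.7, and with bexarotene 110, 79.1, 124 and 69.4. All 4 bexarotene tumors lay above all 4 controls, whereas with MSU-42011 replicate 2 lay among the controls. The log2 fold change was 0.74 ± 0.28 (SE, 95% interval 0.12 to 1.35) for bexarotene, with an edgeR p of 0.023 and an adjusted p of 0.762, and an exact two-sided permutation p of 0.0286, the smallest that 4 tumors against 4 can give. For MSU-42011 it was 0.68 ± 0.28 (0.06 to 1.29; edgeR p = 0.033, adjusted p = 1.00; exact permutation p = 0.114).

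This non-overlap was narrow. Groups did not overlap in the upward direction for 1 of 34 members and for 1.14% of all genes in bexarotene against control, and for 0 members and 1.16% of all genes in MSU-42011 against control. In FPKM, which carry no correction for composition, bexarotene replicate 4 had 62.1 and control replicate 3 had 62.4, so that the groups overlapped. Without MSU-42011 replicate 3, the tumor with the highest value, the log2 fold change for MSU-42011 was 0.33. Without bexarotene replicate 3 that for bexarotene was 0.59. Atp6v1c2 was not at an unadjusted edgeR p under 0.05 for bexarotene without bexarotene replicate 3 or without control replicate 2. Nor was it for MSU-42011 without MSU-42011 replicate 3, control replicate 2 or control replicate 4. A stretch of 50 bases of its exons is shared with Pdia6 on the opposite strand, a gene with 88675 reads against 19895 for Atp6v1c2 over all tumors, and the strand setting of the counting is not given in the sources used here.

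Atp6v1c1 hardly moved beside it, with 56.8, 53.1, 58.7 and 51.8 normalized CPM in controls, 58.9, 55.7, 61.6 and 53.6 with MSU-42011 and 52.8, 48.7, 59.6 and 44.2 with bexarotene. Per length, the ratio of Atp6v1c2 to Atp6v1c1 was 1.35 ± 0.22 in controls, 2.05 ± 0.79 with MSU-42011 and 2.39 ± 0.36 with bexarotene (mean of FPKM ratios ± SD, n = 4). The control ratios ended at 1.48 and the bexarotene ratios began at 2.04. This ratio contains Atp6v1c2 itself and was chosen after its values were seen, so it gives no separate support. Bexarotene replicate 4 had the lowest Atp6v1c1 level of all tumors, at 30.4 FPKM, while control replicate 3 had 43.4.

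Atp6v1b1 (chr6:83742990-83758855, plus strand, GRCm38) had 264, 534, 228 and 228 normalized CPM in controls, 125, 483, 104 and 143 with MSU-42011 and 110, 203, 147 and 194 with bexarotene. The 4 bexarotene tumors lay below the 4 controls, and 3 MSU-42011 tumors did so as well, while MSU-42011 replicate 2 was the second highest of all 12 tumors. The log2 fold change for bexarotene was -0.94 ± 0.47 (SE, 95% interval -1.96 to 0.08; edgeR p = 0.067, adjusted p = 0.802; exact permutation p = 0.0286). Groups did not overlap in the downward direction for 1 of 34 members and for 0.89% of all genes in this comparison. Without control replicate 2 the log2 fold change was -0.56, and without bexarotene replicate 1 it was -0.79 ± 0.50 (edgeR, adjusted p = 0.978).

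**Figure D4:**
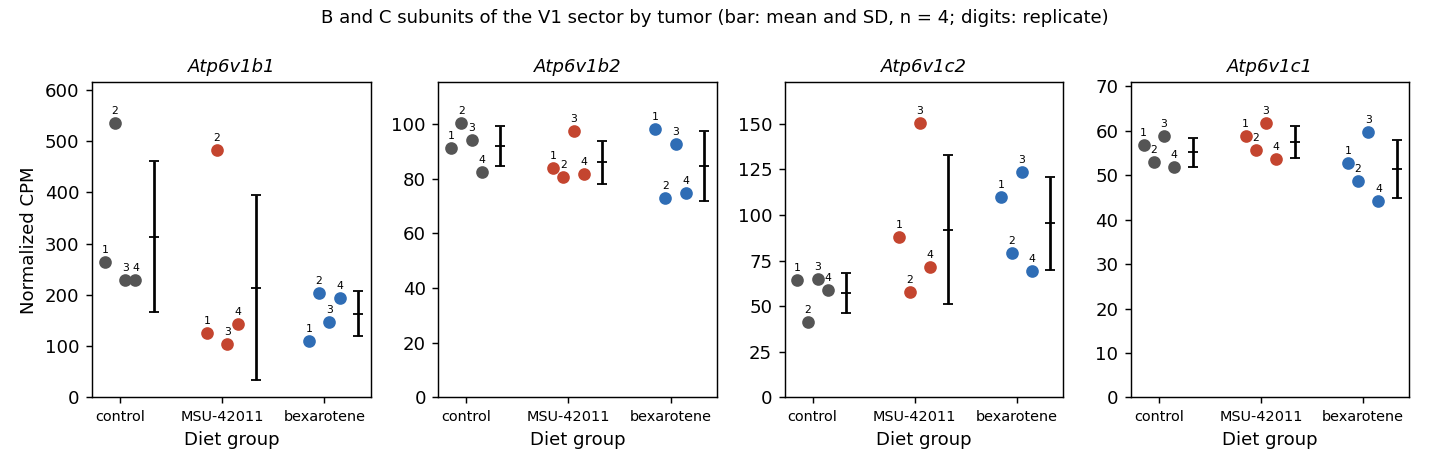
Normalized CPM of the B1 and B2 and of the C2 and C1 subunit genes in each tumor by diet; digits give the replicate and the bar the mean and SD of 4 tumors. Atp6v1b1 spans 104 to 534 and Atp6v1c2 41.6 to 150, while Atp6v1b2 spans 72.9 to 100 and Atp6v1c1 44.2 to 61.6.

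Atp6v1b2 ranged only from 72.9 to 100 normalized CPM over the 12 tumors, and the FPKM ratio of Atp6v1b1 to Atp6v1b2 was 4.07 ± 1.62 in controls, 3.13 ± 2.79 with MSU-42011 and 2.46 ± 0.97 with bexarotene (n = 4 each). Unlike the C subunit pair, these ratios overlapped between bexarotene and control, at 1.36 to 3.39 against 2.94 to 6.47. Coefficients of variation over all tumors were 60.8% for Atp6v1b1, the highest of any member, and 38.5% for Atp6v1c2, against 10.7% for Atp6v1b2 and 9.14% for Atp6v1c1.

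The remaining V1 genes stayed near their control levels. Atp6v1e1, a stalk subunit, had 332, 287, 245 and 275 normalized CPM in controls, 227, 285, 282 and 246 with MSU-42011 and 171, 234, 252 and 272 with bexarotene, with bexarotene replicate 1 lowest. Its log2 fold change for bexarotene was -0.29 ± 0.15 (edgeR, adjusted p = 0.809) and -0.17 without that tumor. Atp6v1a, the catalytic subunit whose promoter is shown above, had 201, 177, 168 and 195 in controls, 212, 161, 249 and 181 with MSU-42011 and 169, 109, 200 and 159 with bexarotene, and the groups overlapped.

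Between both agonists, which were given at the same dose in the diet, Atp6v1a differed by 0.33 ± 0.18 in log2 (95% interval -0.06 to 0.72) and Atp6v1c1 by 0.16 ± 0.10 (-0.06 to 0.39), neither past the threshold (edgeR, adjusted p = 0.997 for both). Atp6v1a came to 0.19 without bexarotene replicate 2, and Atp6v1c1 to 0.10 without bexarotene replicate 4. For Atp6v1c2 the difference was -0.06 with an interval from -0.67 to 0.55, and 0.02 without bexarotene replicate 1. Over all members, 19 of 34 were higher with MSU-42011 than with bexarotene, the median difference was 0.02 beside -0.02 for all genes, and 0 of 34 had groups that did not overlap (0.632% of all genes were apart upward and 0.535% downward). Without bexarotene replicate 1, 21 of 34 were higher with a median of 0.03, and 12 members changed sign, among them Ctss from -0.34 to 0.26. The 95% interval of the difference lay within a 2-fold change for 30 members and reached beyond it for Atp6v1b1, Ctse, Ctss and Ctsw. This was 1 comparison of 1 pair of compounds, with p-values adjusted over all genes.

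Of the accessory proteins, Atp6ap1 is needed to assemble the pump and Atp6ap2 is also known as the prorenin receptor. Atp6ap1 had 214, 193, 188 and 216 normalized CPM in controls, 182, 193, 210 and 170 with MSU-42011 and 183, 165, 187 and 209 with bexarotene. Atp6ap2 had 201, 146, 124 and 337 in controls, 161, 118, 192 and 146 with MSU-42011 and 141, 137, 169 and 149 with bexarotene. Control replicate 4 was far above every other tumor for Atp6ap2, and its log2 fold changes of -0.39 ± 0.27 for MSU-42011 and -0.44 ± 0.27 for bexarotene (edgeR, adjusted p = 1.00 and 0.858) came to -0.02 and -0.08 without that tumor.

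By median, the cysteine cathepsins differed between tumors more than the pump genes did. Their median coefficient of variation was 33.4% (9 tested), and only 2 of them lay under the median of all genes. It was 15.4% for V1 genes, 21.7% for accessory genes and 20.6% for aspartic and serine cathepsins. The most variable single member was the pump gene Atp6v1b1. Log2 fold changes of the cysteine cathepsins ran from -0.38 to 0.18 for MSU-42011 and from -0.40 to 0.31 for bexarotene. Ctsb, a cysteine protease of broad expression, had 1139, 1084, 670 and 979 normalized CPM in controls, 790, 730, 1064 and 765 with MSU-42011 and 1349, 757, 881 and 827 with bexarotene. Ctsh, an aminopeptidase, had 326, 289, 313 and 327 in controls, 352, 305, 404 and 263 with MSU-42011 and 263, 245, 372 and 346 with bexarotene, and no group stood apart.

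Ctss, the cathepsin of antigen-presenting cells, had 153, 139, 43.8 and 94.6 normalized CPM in controls, 99.6, 90.8, 169 and 63.7 with MSU-42011 and 271, 98.2, 103 and 63.4 with bexarotene. Bexarotene replicate 1 was the highest of all tumors and set the sign of the difference. The log2 fold change for bexarotene was 0.31 ± 0.47 with that tumor and -0.29 ± 0.40 without it (edgeR, adjusted p = 0.945 and 0.978). Ctsc, which activates serine proteases of immune granules, had 89.5, 95.8, 74.8 and 88.1 in controls, 71.5, 78.5, 108 and 66.6 with MSU-42011 and 170, 53.9, 94.0 and 52.3 with bexarotene, and its log2 fold change of 0.09 ± 0.32 became -0.38 ± 0.22 without bexarotene replicate 1 (edgeR, adjusted p = 0.976 and 0.978).

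Among the aspartic and serine cathepsins, Ctsd had 1106, 1152, 688 and 832 normalized CPM in controls, 699, 759, 1216 and 720 with MSU-42011 and 913, 817, 812 and 849 with bexarotene. MSU-42011 replicate 3 was the highest of all and the 3 other tumors of that group were among the lowest. Ctsa, a carboxypeptidase that also protects lysosomal sialidase, had 339, 316, 261 and 301 in controls, 242, 307, 277 and 241 with MSU-42011 and 318, 312, 277 and 294 with bexarotene. Its log2 fold change of -0.19 ± 0.11 for MSU-42011 did not pass the test (edgeR, adjusted p = 1.00).

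The LAMP genes had a median coefficient of variation of 14.3%. Lamp1 had 627, 583, 534 and 621 normalized CPM in controls, 534, 509, 662 and 523 with MSU-42011 and 591, 446, 572 and 553 with bexarotene. Lamp2, which also serves in chaperone-mediated autophagy, had 308, 248, 183 and 270 in controls, 236, 190, 286 and 210 with MSU-42011 and 287, 198, 252 and 197 with bexarotene. Log2 fold changes of both lay between -0.13 and -0.09. MSU-42011 replicate 3 was the highest tumor for 9 of the 34 members, whereas 10.5% of all genes were highest there.

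Since macrophages are rich in lysosomes, the members were set against the mean log2 level of 16 macrophage markers over the 12 tumors. This level ran from 4.02 to 5.22 in controls, from 4.14 to 5.22 with MSU-42011 and from 4.05 to 6.71 with bexarotene. Relations were tested by permuting the tumors 100000 times, with Benjamini-Hochberg adjustment over 15488 genes. Of the 34 members, 4 had a positive relation at an adjusted p under 0.05, which was the case for 3.94% of all genes, and 0 had a negative one (0.646% of all genes). At an unadjusted p under 0.05, 3 members had a negative relation, or 8.82%, beside 8.42% of all genes.

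The 4 were all cathepsins. Ctss had r = 0.93 and rho = 0.94 (permutation p = 1e-05, the smallest the permutations can give, and 4e-05; adjusted p = 0.00258 and 0.0126). Ctsb had r = 0.89 and rho = 0.81 (permutation p = 0.0001 and 0.00227; adjusted p = 0.00856 and 0.092). Ctsc reached r = 0.84 and rho = 0.75 (permutation p = 0.0019 and 0.00656; adjusted p = 0.0456 and 0.14), and Ctse r = 0.82 and rho = 0.82 (permutation p = 0.00024 and 0.00186; adjusted p = 0.0148 and 0.0834). By rank, the relation of Ctss alone passed.

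**Figure D5:**
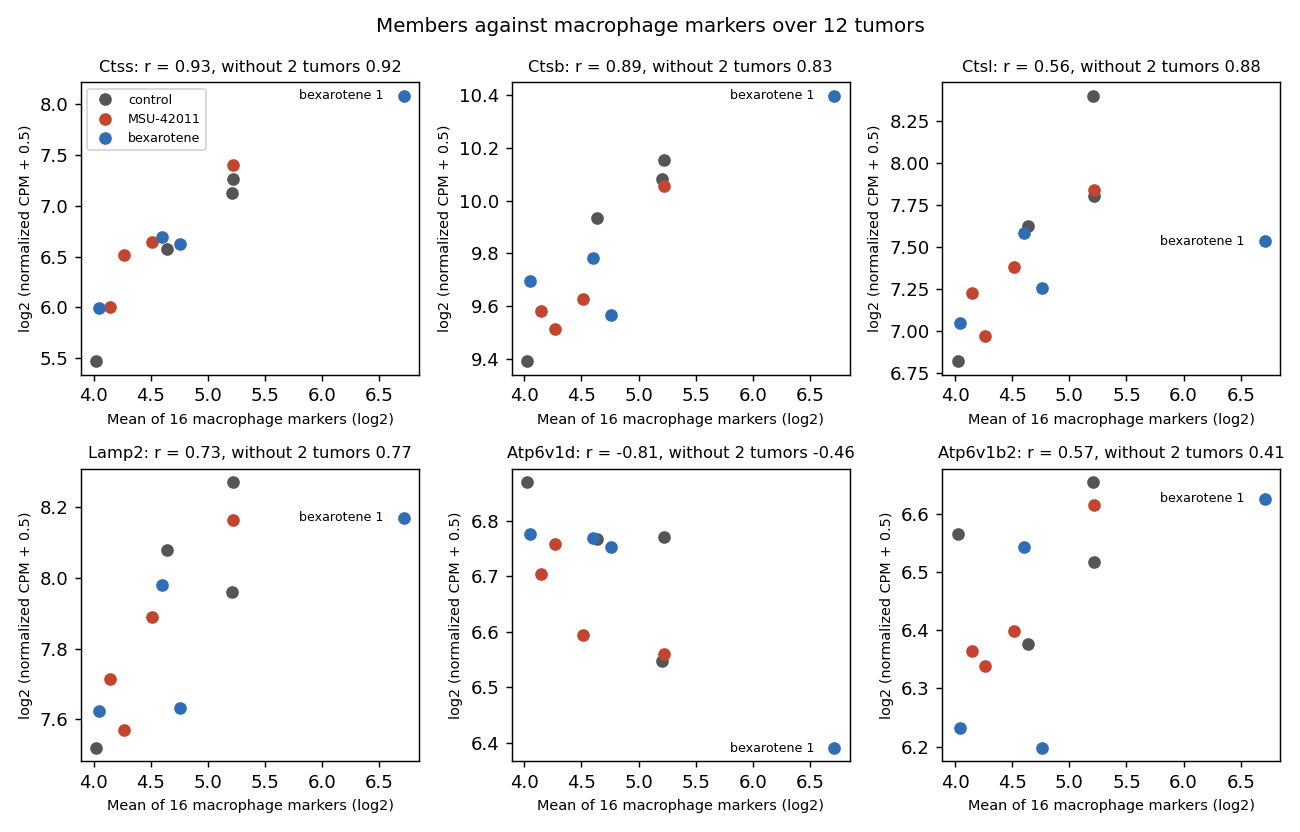
Log2 level of 6 members (normalized CPM plus 0.5) against the mean log2 level of 16 macrophage markers in the 12 tumors, colored by diet, with Pearson's r over all tumors and without the 2 tumors farthest from the median. Ctss, Ctsb, Ctsl and Lamp2 rise with the markers in the main body of tumors, and bexarotene 1 lies far to the right.

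Bexarotene replicate 1 and MSU-42011 replicate 3 were farthest from the median marker level. Without them r was 0.92 for Ctss and 0.83 for Ctsb (permutation p = 5e-05 and 0.00367; adjusted p = 0.062 and 0.18), 0.53 for Ctsc (permutation p = 0.111; adjusted p = 0.492) and 0.79 for Ctse (permutation p = 0.00817; adjusted p = 0.223). With 10 tumors no member passed the adjustment, and the relation of Ctsc rests on those tumors. Ctsl, a broad endopeptidase, went from r = 0.56 over all tumors (permutation p = 0.061; adjusted p = 0.245) to 0.88 without them (permutation p = 0.00037; adjusted p = 0.0939); bexarotene replicate 1 had 185 normalized CPM of Ctsl, within the range of the other tumors. Ctsd went likewise from 0.58 to 0.83 (permutation p = 0.0448 and 0.00377; adjusted p = 0.209 and 0.18).

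With the group means removed, 7 members passed, 6 of them positive beside 10.2% of all genes and 1 negative beside 4.58%: the 4 above with r of 0.82 to 0.95, Ctso with 0.84 and Lamp2 with 0.77 as positive relations, and Atp6v1d with -0.89 as a negative one (permutation p = 0.00016; adjusted p = 0.00572). Atp6v1d, a subunit of the central rotor, had r = -0.81 over all tumors (permutation p = 0.00306; adjusted p = 0.0579), and -0.46 without the 2 farthest ones (permutation p = 0.176; adjusted p = 0.57). By role, 8 of 9 cysteine cathepsins, 3 of 3 aspartic and serine cathepsins and 2 of 2 LAMP genes had a positive r, whereas 0 of 7 V0 genes and 4 of 11 V1 genes did, with a median r over all genes of -0.01. Without the 2 farthest tumors, 2 of 7 V0 genes and 7 of 11 V1 genes were positive. Against the 12 epithelial markers, no member and none of 15492 genes passed the adjustment; Ctsl had the highest r of any member at 0.66 (permutation p = 0.0202; adjusted p = 0.893; 1 member was at an unadjusted p under 0.05, beside 5.34% of all genes).

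Marker lists of other cell types moved between the groups in different ways, also without passing the test. For bexarotene against control, 15 of 16 macrophage markers, 10 of 10 fibroblast markers and 8 of 8 endothelial markers had positive log2 fold changes, with medians of 0.59, 3.51 and 0.72, and 8 of 8 tested T and NK cell markers had negative ones, with a median of -0.45. Without bexarotene replicate 1, 1 of 16 macrophage markers was positive with a median of -0.28, 8 of 10 fibroblast markers with a median of 0.80 and 5 of 8 endothelial markers with a median of 0.13, and the T and NK cell median was -0.49. For MSU-42011 against control, 14 of 16 macrophage markers were negative, with a median of -0.14. So were 11 of 12 epithelial markers, with a median of -0.21, while 7 of 8 endothelial markers were positive, with a median of 0.30. For bexarotene, 11 of 12 epithelial markers were also negative, with a median of -0.21. Without bexarotene replicate 1, 5 of 12 were positive and the median was -0.09. The part of these cell types in the member levels was not tested.

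Other lysosomal genes were looked at through lists written by hand. Of 112 genes in 9 lists, 106 were tested, and 0 passed in any comparison by edgeR (an unadjusted p under 0.05 was seen for 3 with MSU-42011, 5 with bexarotene and 5 between the agonists, beside 1.99%, 6.44% and 3.95% of all genes). The median log2 fold change over these 106 genes was -0.01 for MSU-42011 and 0.06 for bexarotene against control, the latter -0.02 without bexarotene replicate 1. The 20 lysosomal glycosidases had medians of -0.01 and 0.06, and the 11 genes that sort enzymes to lysosomes 0.05 and 0.06; without that tumor the bexarotene medians were -0.03 and -0.01. All 4 MiT/TFE transcription factors had positive log2 fold changes for bexarotene, from 0.08 for Tfeb to 0.82 for Tfec, and that of Mitf was 0.73 ± 0.30 (edgeR, adjusted p = 0.762). Without bexarotene replicate 1 Mitf came to 0.37 ± 0.25, Tfec to 0.22 and Tfeb to 0.12 (edgeR, adjusted p = 0.978, 0.981 and 0.978), and Tfe3 went from 0.11 to 0.01.

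Among V-ATPase genes outside the rule, Dmxl2, a partner of the pump in its assembly, was the one whose groups separated for both agonists. It had 12.7, 13.8, 16.04 and 13.1 normalized CPM in controls, 20.6, 21.6, 16.96 and 17.7 with MSU-42011 and 23.1, 24.9, 16.6 and 24.5 with bexarotene. Every treated tumor lay above every control, with log2 fold changes of 0.47 ± 0.16 and 0.68 ± 0.16 (edgeR, adjusted p = 1.00 and 0.762). The exact permutation p was 0.0286 for both comparisons, which share their controls, and follows once the groups do not overlap. Of the 106 list genes, 1 lay above the controls without overlap for MSU-42011 and 2 for bexarotene. The shares over all genes were 1.16% and 1.14%. Below the controls lay 1 for each agonist, beside 0.806% and 0.89% of all genes. For MSU-42011 this was Atp6v0d2, which had only 0 to 3 counts per tumor in that group.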

How the data were processed

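RNA of 12 mammary tumors was sequenced. The authors deposited raw read counts of 54532 genes per tumor, without normalization, and FPKM values, which the authors scaled by gene length and by the total count. The submitters' processing notes name STAR 2.6.1d, featureCounts 1.5.0-p3 and DESeq2; the strand setting is not given in the sources used here. Coordinates of 98.2% of the genes equal those of GENCODE M21 (GRCm38).

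Counts were normalized by TMM and filtered with filterByExpr at its defaults in edgeR 4.0.16 (R 4.3.3). A quasi-likelihood model with 1 mean per group was fitted to all 12 tumors, and p-values were adjusted over all 15504 genes with a threshold of 0.05. Normalized CPM are counts scaled to the TMM-adjusted library size, and log2 values use a pseudocount of 0.5. DESeq2 1.42.0 and limma 3.58.1 on log2 FPKM served as alternatives. Fits and relations were tested on simulated data. Single genes were compared by exact two-sided permutation tests. The labels give 4 numbered tumors per group, and p-values measure the spread between them. Counting limits cover counting error only.

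Members and lists were chosen with earlier results of these data known. Named were the 2 most abundant members per role, the 5 with the smallest p among the 3 groups, the 4 with the smallest p per comparison, members whose groups did not overlap, those most and least related to macrophage markers, and up to 3 genes of each other list with the smallest p.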

Additional observations from a re-analysis of the deposited data

Results flagged for a closer look

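Of the 16 members named by abundance, p or non-overlap, 5 values lay far from the other 3 tumors of their group, in 48 groups looked at; chance alone marks about 1 in 20 groups. For Atp6v1b1, control replicate 2 had 534 normalized CPM against 228 to 264 in the other controls, and MSU-42011 replicate 2 had 483 against 104 to 143. For Ctsd, MSU-42011 replicate 3 had 1216 against 699 to 759, and for Lamp1 the same tumor had 662 against 509 to 534. For Atp6v0d1, control replicate 1 had 143 against 125 to 127.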

How the results depend on the processing

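The number of members past the adjusted threshold was 0 in every comparison of diets under every alternative run: DESeq2, limma on log2 FPKM (plus 1 or 0.1), edgeR with other size factors, with a looser or stricter filter (none, or 10 counts in each tumor), with robust estimation or with only the 2 groups compared, and each tumor left out. Replicate numbers are shared between groups, and the deviations of same-numbered tumors correlated between -0.35 and 0.35. Differently numbered tumors were not compared, so a pairing by number cannot be judged from these values. With a replicate block the count was likewise 0 in all 4 tests, and the median log2 fold changes stayed within the spread between tumors.

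The median over members was -0.14 to -0.02 for MSU-42011 against control and -0.12 to -0.01 for bexarotene against control over all alternatives, and -0.078 to 0.052 between the agonists when 1 tumor was left out, with the value of -0.078 without MSU-42011 replicate 3. The Ctsc difference for bexarotene turned to -0.037 with limma on log2 FPKM plus 1, to -0.041 with plus 0.1 and to -0.045 with the replicate block, and the cause was not tested. With 1 tumor left out it ran from -0.38 to 0.28, and that of Ctss from -0.29 to 0.54, both negative without bexarotene replicate 1. Leaving that tumor out of the other lists and the promoter groups, and the FPKM scale for overlap, were chosen after seeing the data. In FPKM, 0 members had bexarotene tumors all above the controls, against 1 in normalized CPM. The count of members related to macrophage markers was 4, and 7 with group means removed. It was 6 in log2 FPKM plus 1 and 0 without the 2 farthest tumors (fewer tumors). With 1 tumor left out it was 2 to 5, 2 being without bexarotene replicate 1. Shares over all genes are given above only for the main test and with group means removed. The other counts, also those by rank, are therefore not read as a result about the members.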

Other observations

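Atp6v1b1 and Atp6v1c2 ran against each other over the tumors, a pattern chosen after the values were seen. Control replicate 2 and MSU-42011 replicate 2 had the 2 highest Atp6v1b1 and the 2 lowest Atp6v1c2 levels, and MSU-42011 replicate 3 had the lowest Atp6v1b1 and the highest Atp6v1c2 level. Over 12 tumors the log2 levels had r = -0.86 and rho = -0.91 (permutation p = 0.00032 and 0.00011). Without the 2 tumors with the most extreme Atp6v1b1 level r was -0.83 (permutation p = 0.00276), and with the group means removed it was -0.80 (permutation p = 0.00139). This was the most negative of the 561 pairs of tested members, and these p-values are not adjusted for that choice. The most positive pair was Ctsb and Ctss with r = 0.89.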
